A study of Gallus gallus with 6 samples.

Results

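Growing feathers of the adult chicken were compared here for the genes of the extracellular matrix and of its receptors. The members are the collagens, laminins, matrix glycoproteins and proteoglycans, matrix remodelling enzymes and their inhibitors, serpins and integrins. They were taken from the deposited tables by gene name. The names were matched without measured values, but the members and classes were chosen with earlier results of these data known. The name pattern took 75 of the 9703 distinct gene names found in either of 2 deposited tables. Of these 75, 30 were among the 6534 entries of the first table and 66 among the 6534 entries of the second, 21 stood in both, 9 in the first only and 45 in the second only. By class there were 4 fibrillar collagens, 8 genes of the basement membrane zone, 12 other collagens, 11 matrix glycoproteins and proteoglycans, 14 remodelling enzymes and inhibitors, 11 serpins and 11 integrin subunits. The remaining 4 names, *COL4A3BP*, *ITGB1BP1*, *ITGB1BP3* and *ITGB3BP*, were taken by the pattern although they name no collagen chain or integrin subunit, and they were counted apart.

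A growing feather is a tube of epithelium around a core of mesenchymal pulp, and a basement membrane lies between them. In vertebrates the sheet is built of type IV collagen and laminin, and basal keratinocytes hold on to it through integrins and, at hemidesmosomes, through collagen XVII. Fibrillar collagens, collagen VI and small proteoglycans such as decorin and lumican fill the connective tissue beneath and are made mainly by fibroblasts, while metalloproteinases cut these proteins and TIMPs inhibit the metalloproteinases.

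All 6 libraries came from untreated wild type adult chickens of the strain given as domesticus, from feathers in growth phase. There were 2 libraries each from neck, wing and leg feathers. The design text says that the pulp was discarded and that branching epithelium of several feathers was pooled for each RNA, whereas the methods of the study name whole follicles or dissected dermal papilla and pulp as the source of its RNA. Replicate 1 of every region is in the first table, as whole numbers whose unit is not given in the sources used here, and replicate 2 is in the second table as FPKM (fragments per kilobase of transcript scaled to the mapped fragments of the library). In the second table each region's column bears its own number after the word chicken, so if these mark birds, region and bird cannot be told apart there. Nothing says that the replicates came from separate birds or separate RNA, and p-values measure only the spread between these libraries, which may be technical. Without replicates inside a table, fold differences within it have no error and no test.

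Depth per library is unknown. The values of a library summed to between 1780292 and 4195932 in the first table and to between 701758 and 805460 FPKM in the second, and in both tables the wing sum was the lowest. The 10 highest entries held 40.7% of the wing sum against 66.9% and 67.6% of the neck and leg sums in the first table, and 11.6% against 27.3% and 31.5% in the second. The median difference of all entries between wing and neck on the log2(value + 1) scale was -0.08 for the first table and 0.41 for the second, and the shift of all genes is given beside the members' medians.

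Wing was highest for 24 of 30 members in the first table and 47 of 54 in the second, beside 38.8% and 76.5% of all entries. The order wing above leg above neck held for 14 of 30 and 40 of 54, beside 4.62% and 33.6% of all entries. Among the shared members, *SERPINF1*, *COL6A2*, *MGP*, *COL1A2* and *COL3A1* stood furthest apart in wing against neck. Integrins were closer together, and a few genes went the other way. In the fit over both tables (limma on log2(value + 1), table as a block, Benjamini-Hochberg adjusted p of at most 0.05 over 2191 genes), 17 of the 21 shared members rose in wing against neck and 1 fell, where 19.5% and 8.26% of all genes did. In leg against neck 11 rose and 1 fell, where 1.78% and 10.4% of all genes did. In leg against wing 17 fell and 1 rose, where 40.8% and 5.98% of all genes did. The median change over the 21 was 1.65 in wing against neck, 0.68 in leg against neck and -1.04 in leg against wing, beside 0.14, -0.20 and -0.32 over all 2191 genes.

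These calls rest on a spread pooled over all genes, because limma's variance prior gave a gene's own spread no weight. With each gene's own spread in its place, an alternative chosen after seeing the data, limma called 0 of the 21 members in any comparison. An unadjusted p under 0.05 was then found for 16 members in wing against neck, 11 in leg against neck and 14 in leg against wing, beside 20.0%, 13.3% and 32.5% of all genes. Without the block limma also called 0 members in each comparison, with an unadjusted p under 0.05 for 10, 4 and 1 of them, beside 37, 9 and 32 of all 2191 genes. The verbs rose and fell below refer to the fit with the block and the pooled spread.

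**Figure D1:**
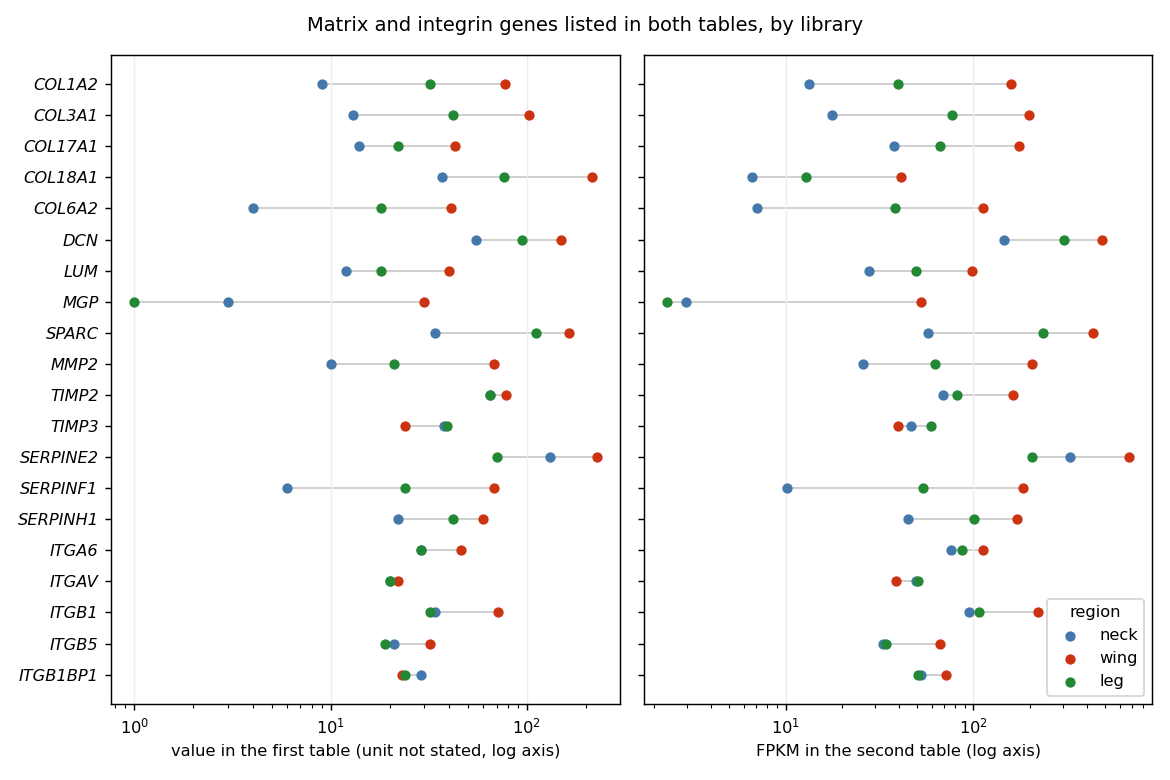
Values of the shared members in neck, wing and leg feathers, 1 point per library, with the first table (unit not stated) and the second table (FPKM) drawn apart on log axes. The wing point is the highest in both tables for 17 of the members drawn, and *ITGA3*, listed at 0 in the second table, is left out.

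For each of the 18 shared members called, both tables gave the same sign in every comparison that called it. The 2 tables' log2 differences for a member lay a median of 0.49 apart in wing against neck and 0.24 apart in leg against neck, where all genes lay 0.37 and 0.22 apart. *TIMP2* was the furthest apart in wing against neck, by 0.96.

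**Figure D2:**
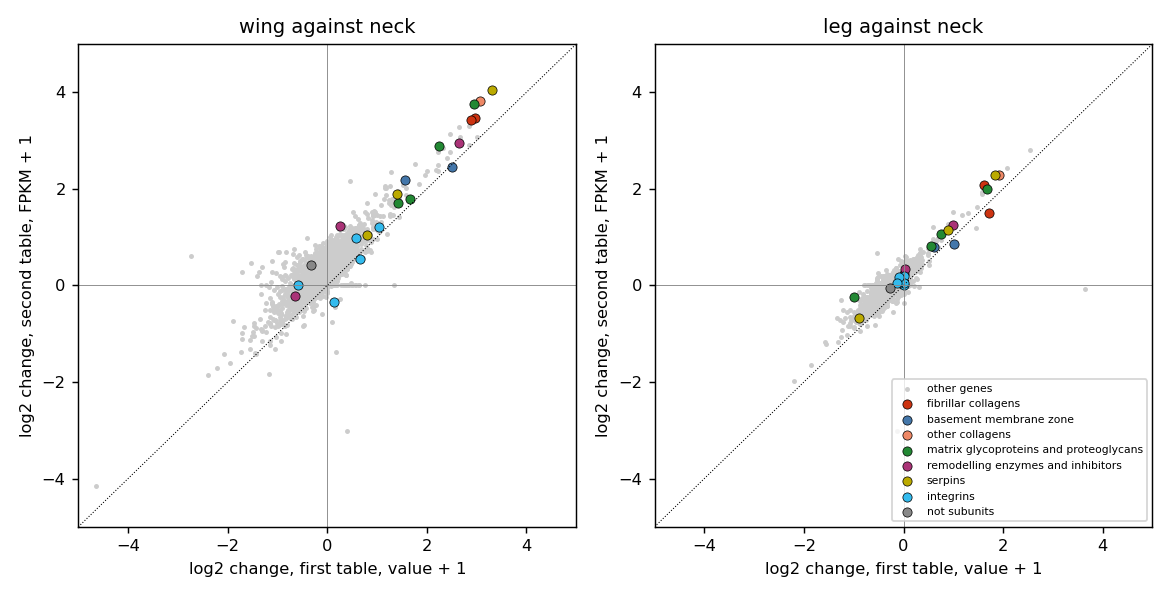
Log2 difference in the first table (x axis) against that in the second (y axis) for each gene in both tables, for wing against neck and for leg against neck, with members in colour and other genes in grey. Most members lie in the upper right of the wing panel, and 2 other genes beyond 5 on either axis are not drawn there.

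Counted within each table, with a fold of at least 2 on the value + 1 scale and the higher library at 10 or more (first table) or at 1 FPKM or more (second table), the members past the minimum divided as follows. In wing against neck, 15 of 30 in the first table and 38 of 54 in the second were higher in wing and 0 in either table lower, where 5.46% and 15.9% of all entries were higher and 7.87% and 1.8% lower. In leg against neck 7 of 28 and 17 of 49 were higher and 0 lower, where 1.7% and 3.09% of all entries were higher and 4.34% and 0.915% lower. In leg against wing 11 of 30 and 22 of 54 were lower, where 10.7% and 15.1% of all entries were. *SERPINF2* was higher in leg, the one such member among 30 and none among 54, where 4.8% and 2.23% of all entries were. The minimum applied to the higher library, so a member below it in 1 region could pass only through the region where it was higher. In wing against neck in the first table, *COL1A2*, *COL6A2*, *LAMB1*, *MGP* and *SERPINF1*, under 10 in neck, counted as higher only through wing. *ITGA2* and *ADAMTSL5* also passed only through wing. In leg against neck, *COL1A2*, *COL6A2* and *SERPINF1* in the first table, under 10 in neck, counted as higher only through leg. *TNC* and *ITGB2* in the second, under 1 FPKM in neck, did so too. In leg against wing, *MGP* in the first table and *COL8A1* and *ITGB3* in the second, under the minimum in leg, counted as lower only through wing. The lowest mean of any entry of the first table was 9.67, and whether a minimum was set before deposit is not stated. *SERPINF1*, *COL6A2*, *MGP* and *COL1A2* are also among the shared members furthest apart.

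The order wing above leg above neck held for 14 of 30 members in the first table, against 4.62% of all entries, and for 40 of 54 in the second, against 33.6%. Wing was highest for 24 of 30 and 47 of 54 members, beside 38.8% and 76.5% of all entries. It was lowest for 5 of 30 members in the first table and 5 of 54 in the second, beside 29.0% and 12.7% of all entries. These were *ITGA3*, *TIMP3*, *SERPINF2*, *COL4A3BP* and *ITGB1BP1* in the first, and *FBLN1*, *ITGA1*, *ITGAV*, *MMP10* and *TIMP3* in the second. *TIMP3* is the one gene in both.

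Markers of other cell types also differed between regions, and values of a gene or list are given from here on in the order neck, wing and leg. In bulk tissue, fewer cells of a type and less RNA per cell cannot be told apart. Of the mesenchyme markers 16 of 22 were in the second table, summing to 157, 406 and 279 FPKM (neck, wing, leg). Of those past 1 FPKM, 13 of 14 were at least 2-fold higher in wing and 7 of 12 in leg than in neck. Of all entries, 15.9% and 3.09% were. Several, such as *MEOX2* at 0.223, 9.80 and 0.434 FPKM, were under 1 FPKM in neck and passed only through the higher region. *CRABP1* (7.55, 43.4 and 59.1 FPKM) and *FGF10* (1.43, 4.47 and 5.23 FPKM) were highest in leg, and *TCF21* was at 0. *VIM*, vimentin, was at 133, 193 and 159 FPKM and at 75, 62 and 69 in the first table, and was not called. *CRABP1* stood at 5, 23 and 34 in the first table. Of these 2 markers tested by limma, *CRABP1* rose in wing and in leg against neck, where 19.5% and 1.78% of all genes did. It also rose in leg against wing, where 5.98% of all genes did.

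Blood and endothelium markers summed to 14.9, 103 and 36.5 FPKM, with *HBE1* at 0, and leukocyte markers to 76.6, 288 and 186 FPKM. Of 12 leukocyte markers past 1 FPKM, 8 were at least 2-fold higher in wing than in neck, where 15.9% of all entries were. *CD4* and *PTPRC*, under 1 FPKM in neck, passed only through wing. *CD3D* and *CD3E* were lower in wing than in neck, with log2 differences of -0.42 and -0.33. All 3 leukocyte markers in the first table were at least 2-fold higher in wing, where 5.46% of all entries were. *CTSS* and *LY86*, under 10 in neck there, passed only through wing. By limma 3 of 3 leukocyte markers rose in wing against neck and 2 in leg against neck, where 19.5% and 1.78% of all genes did. In leg against wing 2 of the 3 fell, where 40.8% of all genes did. Of the blood and endothelium markers 8 of 10 were at least 2-fold higher in wing than in neck, where 15.9% of all entries were. *HBAD*, *FLT1*, *KDR* and *ERG*, under 1 FPKM in neck, were among the 10 only through wing. Keratinocyte markers, which define the labelled tissue, summed to 5219.7, 6536 and 4813 FPKM. Their sums in the first table were 2955, 2267 and 2285, with wing lowest. The basal keratins in that list stood higher in wing, *KRT14* at 275, 972 and 281 FPKM and *KRT15* at 119, 526 and 133 FPKM. They were the only 2 of 10 markers past 1 FPKM that were at least 2-fold higher in wing than in neck, where 15.9% of all entries were. *SFN*, *CLDN1* and *ESRP2* were lower in wing than in neck in both tables. Wing exceeded neck for 4 of 12 markers in the first table, with a median log2 difference of -0.24. By limma 0 of 7 keratinocyte markers were called in wing or leg against neck, where 27.7% and 12.1% of all genes were. An unadjusted p under 0.05 was found for 3 and 0 of them, beside 824 and 571 of all 2191 genes. In leg against wing 1 rose and 3 fell, where 5.98% and 40.8% of all genes did. The genes *KRT5*, *KRT6A* and *KRT75* were listed at 0 in the second table and *KRT5* at 307, 519 and 244 in the first. Muscle markers summed to 6.17, 8.77 and 8.12 FPKM. The part that these cell types have in the differences of the members was not tested.

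Fibrillar collagens form the tensile fibres of connective tissue. *COL1A2*, the second chain of type I collagen (chromosome 2, 23601010 to 23640338 in the table's coordinates, whose assembly the table does not name), stood at 9, 77 and 32 (neck, wing, leg) by the first table. In the second table it was at 13.3, 158 and 39.6 FPKM in the same order. In each table wing was highest and neck lowest. *COL1A2* rose by 3.22 ± 0.17 (SE, n = 2 libraries a region) on the log2 scale in wing against neck (limma, adjusted p = 8.3e-73) and by 1.61 in leg against neck (adjusted p = 1.6e-18). Here and below the SE comes from the spread pooled over genes and is not the gene's own.

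*COL3A1*, the chain of type III collagen that is laid down with type I in soft tissue, stood at 13, 102 and 42 by the first table. Its FPKM were 17.6, 198 and 77.2. The order of regions was the same in both tables, and it rose by 3.15 ± 0.17 in wing and by 1.85 in leg against neck. Its entry in the first table spans 318013 bases on chromosome 7, more than the 133977 bases of the gene in RefSeq's GRCg7b annotation.

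*COL5A1*, a chain of the collagen that starts type I fibrils, is in the second table only, at 2.70, 11.6 and 5.73 FPKM (neck, wing, leg). The cartilage collagen *COL2A1* was listed at 0 in all 3 libraries. The summed FPKM of the 4 fibrillar members was 33.6, 368 and 123 (neck, wing, leg), the highest wing-to-neck ratio of any class (10.9), with 3.65 for leg to neck. The ratio of *COL3A1* to *COL1A2* FPKM was 1.32, 1.26 and 1.95 in neck, wing and leg, highest in leg, but the first table did not have this order: there the log2 difference of leg against neck was 1.62 for *COL3A1* and 1.72 for *COL1A2*.

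**Figure D3:**
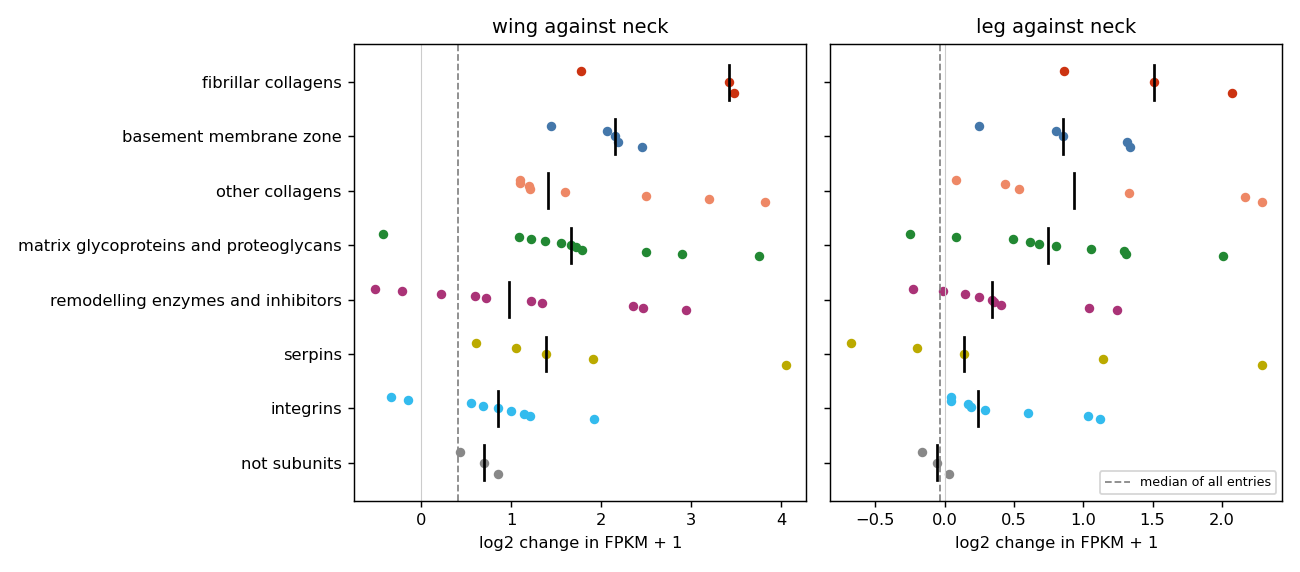
Log2 difference in FPKM + 1 of the second-table members by class, for wing against neck and for leg against neck, 1 point per gene. Members with at least 1 FPKM in the higher library are drawn. Black bars are class medians, and the dashed line is the median of all entries. In wing against neck the median is 3.42 for the fibrillar collagens and 0.85 for the integrins.

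The basement membrane zone is where basal keratinocytes meet the mesenchyme. *COL17A1*, the transmembrane collagen of hemidesmosomes that epithelial cells themselves make, had values of 14, 43 and 22 (neck, wing, leg). In the second table it stood at 37.7, 176 and 66.4 FPKM. Both tables had wing highest and neck lowest, and *COL17A1* rose by 1.87 ± 0.17 in wing (adjusted p = 2.8e-25) and by 0.71 in leg against neck (adjusted p = 0.0011), and fell by 1.16 in leg against wing.

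*COL18A1*, a heparan sulfate collagen of basement membranes and the source of endostatin, had values of 37, 214 and 76 in neck, wing and leg. Its FPKM were 6.66, 41.0 and 12.8. It rose by 2.48 ± 0.17 in wing and by 0.93 in leg against neck. Its entry overlaps that of *SLC19A1* on chromosome 7, and as strand is not stated the reads of the pair cannot be told apart.

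Type IV collagen chains, the network of the basement membrane, were in the second table only. *COL4A1* was at 5.59, 26.4 and 15.4 FPKM (neck, wing, leg), and *COL4A2*, its partner in the same trimer, at 2.38, 14.0 and 7.54. The ratio of *COL4A1* to *COL4A2* was 2.35, 1.89 and 2.05, a narrower range than either gene's own. Among laminins, *LAMB1* was at 8, 25 and 13 in the first table, where its entry overlaps *DLD*. *LAMB2* was at 2.31, 7.98 and 2.94 FPKM, and *LAMA1* and *LAMB4* stayed under 1 FPKM in every region.

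Of the 5 second-table genes of the zone past 1 FPKM, all 5 were at least 2-fold higher in wing than in neck and 2 in leg than in neck. Of all entries, 15.9% and 3.09% were. *COL17A1* held most of the summed FPKM of the class, which was 54.8, 266 and 105 (neck, wing, leg). For wing against neck the class median on the log2 scale was 1.55 by the first table and 2.15 by the second, below the 2.92 and 3.42 of the fibrillar collagens. The difference between the classes was not tested.

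Among other collagens the chains of collagen VI, which forms beaded microfibrils around cells, had the highest wing values of the second table. *COL6A2* had values of 4, 41 and 18 (neck, wing, leg), and of 7.01, 112 and 38.1 FPKM in the second table. It rose by 3.44 ± 0.18 in wing against neck (adjusted p = 1.7e-77) and by 2.11 in leg against neck, the largest change of any shared collagen in both comparisons. Its partners in the second table only were *COL6A1* at 3.36, 38.8 and 18.6 FPKM and *COL6A3* at 2.93, 21.1 and 8.87 FPKM. All 3 chains had the same order of regions.

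*COL26A1* was in the first table only, at 17, 53 and 27 (neck, wing, leg). The fibril-associated collagens *COL12A1* (2.78, 7.07 and 4.48 FPKM) and *COL14A1* (3.30, 8.96 and 4.82 FPKM) were at lower FPKM than the collagen VI chains in wing, and so was *COL8A1*, a network collagen, at 0.669, 4.05 and 0.705 FPKM. *COL9A2* was at 0.430, 2.05 and 0.563 FPKM and *COL9A3* at 1.68, 5.12 and 1.83 FPKM, with leg close to neck in these last 3 genes. *COL9A1*, *COL20A1* and *COL22A1* stayed under 1 FPKM everywhere. All 8 of the class past 1 FPKM were at least 2-fold higher in wing than in neck, and 3 of 6 in leg than in neck. Of all entries, 15.9% and 3.09% were. *COL8A1* and *COL9A2* passed the minimum only through wing, so for these genes a higher wing value was fixed by the filter.

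**Figure D4:**
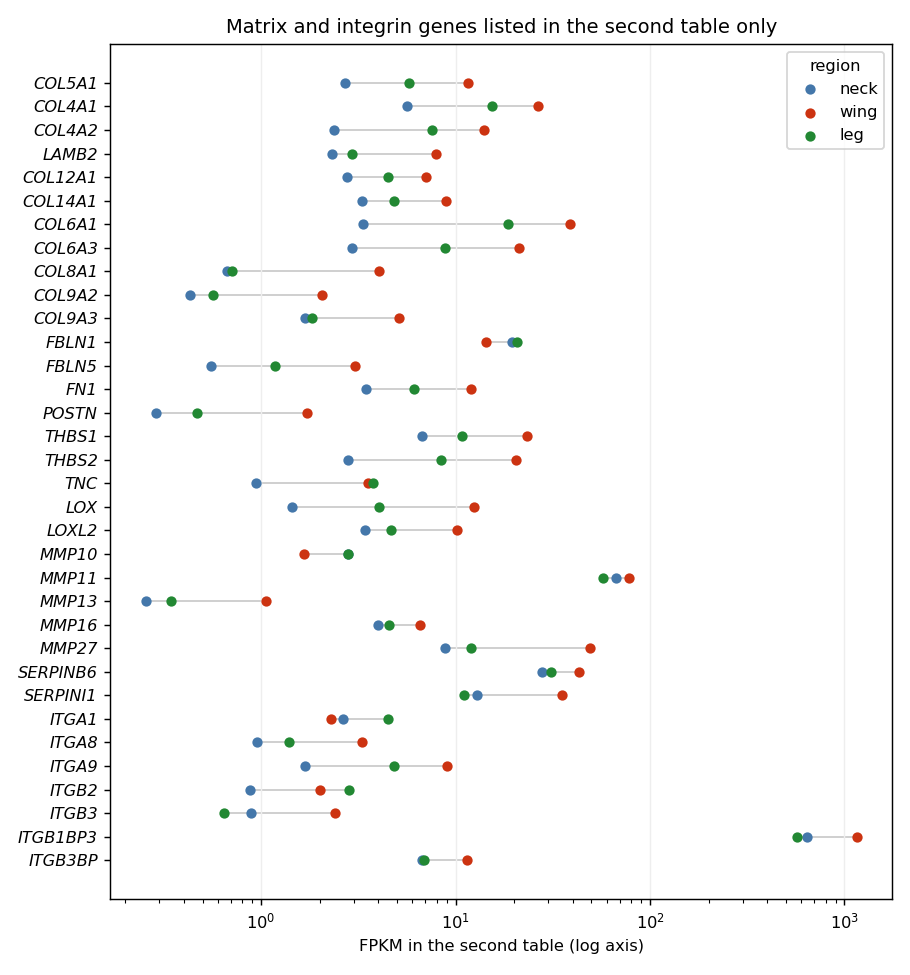
FPKM in neck, wing and leg of members listed only in the second table with at least 1 FPKM in some library, 1 point per library, on a log axis. *COL6A1* reaches 38.8 FPKM in wing against 3.36 in neck, while *FBLN1* and *MMP10* have their lowest point in wing.

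The glycoproteins and proteoglycans that organise the fibres had the highest summed FPKM of any class in wing and leg, the names that are no subunits left out. *SPARC*, a collagen-binding glycoprotein, had values of 34, 164 and 111 (neck, wing, leg), and FPKM of 57.6, 435 and 234. It rose by 2.57 ± 0.19 in wing and by 1.84 in leg against neck, and fell by 0.72 in leg against wing. *DCN*, the proteoglycan decorin that coats collagen fibrils, had values of 55, 149 and 94 and FPKM of 146, 482 and 305. It rose by 1.57 ± 0.20 in wing and by 0.91 in leg, with leg between the other regions in both tables.

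*LUM*, the related proteoglycan lumican, was at 12, 40 and 18 in neck, wing and leg and at 27.9, 98.3 and 49.6 FPKM. It rose by 1.72 in wing and by 0.68 in leg against neck. *MGP*, an inhibitor of calcification, had another pattern, with values of 3, 30 and 1 and FPKM of 2.96, 52.3 and 2.34. Wing stood alone in both tables: *MGP* rose by 3.35 ± 0.24 against neck and fell by 3.98 in leg against wing (adjusted p = 3.0e-55), the largest fall of the 21, while its log2 difference of -0.62 in leg against neck was not called (adjusted p = 0.072). That difference was called with a pseudocount of 0.1 (-0.91) or without a trended prior (adjusted p = 0.015), and turned to 0.45, not called, with quantile normalization.

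*FN1*, fibronectin, the main integrin ligand of provisional matrix, was at 3.45, 12.0 and 6.14 FPKM (neck, wing, leg). *TNC*, tenascin C, which marks feather mesenchyme, was at 0.947, 3.53 and 3.78 FPKM, so that leg did not lie between the other regions. The thrombospondins *THBS1* (6.68, 23.2 and 10.8 FPKM) and *THBS2* (2.80, 20.4 and 8.41 FPKM) kept the order of wing, leg and neck. *POSTN*, periostin, reached 1.73 FPKM in wing against 0.288 in neck and 0.470 in leg, and *FBLN5*, an elastic fibre protein, was at 0.553, 3.04 and 1.18 FPKM. *FBLN1* alone in the class had its lowest value in wing (19.5, 14.3 and 20.8 FPKM). The other 10 of its 11 second-table genes were at least 2-fold higher in wing than in neck, where 15.9% of all entries were. *TNC*, *POSTN* and *FBLN5*, under 1 FPKM in neck, passed the minimum there only through wing.

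Among remodelling enzymes, *MMP2*, gelatinase A, had values of 10, 68 and 21 (neck, wing, leg) and FPKM of 25.8, 205 and 62.3. It rose by 2.80 ± 0.17 in wing and by 1.12 in leg against neck. Its entry in the first table spans 140525 bases, against 34709 in GRCg7b, and overlaps *CAPNS2*. *MMP27*, in the second table only, was at 8.83, 49.3 and 12.0 FPKM. *LOX*, lysyl oxidase, which cross-links collagen, was at 1.44, 12.5 and 4.03 FPKM, and *LOXL2*, of the same family, at 3.42, 10.2 and 4.66 FPKM.

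TIMPs inhibit these enzymes. *TIMP2* had values of 65, 78 and 65 in neck, wing and leg and FPKM of 68.7, 162 and 81.6. It rose by 0.74 ± 0.18 in wing against neck, although its 2 tables gave 0.26 and 1.22, and it was not called in leg against neck (0.12). *TIMP3*, which binds to the matrix itself, had values of 38, 24 and 39 and FPKM of 46.4, 39.9 and 59.1. Wing was lowest in both tables, and *TIMP3* fell by 0.43 ± 0.17 in wing against neck (adjusted p = 0.048) and rose by 0.62 in leg against wing (adjusted p = 0.0013).

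With only the neck and wing libraries in the fit, neither TIMP was called in wing against neck, and *TIMP3* was also lost with a pseudocount of 0.1. The FPKM ratio of *MMP2* to *TIMP2* was 0.375, 1.27 and 0.764 (neck, wing, leg), and that of *TIMP2* to *TIMP3* 1.48, 4.05 and 1.38. *MMP15* was at 49, 62 and 39 in the first table, where it overlaps *USB1*, and *MMP16* at 4.01, 6.55 and 4.55 FPKM. *MMP10* was lowest in wing (2.81, 1.67 and 2.78 FPKM). *MMP13* reached 1.06 FPKM in wing, *MMP7* and *MMP9* stayed under 1 FPKM, and *ADAMTSL5* was at 9, 14 and 11 in the first table. The entry named *MMP11* (67.1, 78.0 and 57.2 FPKM) may hold another gene, since RefSeq gives that name as an older one of *SMARCB1*.

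Serpins are named for serine protease inhibition, but several act otherwise. *SERPINH1*, the chaperone that folding collagen needs, had values of 22, 60 and 42 (neck, wing, leg) and FPKM of 44.9, 171 and 101. It rose by 1.65 ± 0.18 in wing and by 1.02 in leg against neck. The ratio of *COL1A2* to *SERPINH1* FPKM was 0.296, 0.925 and 0.394 (neck, wing, leg). *SERPINF1*, the anti-angiogenic factor PEDF, had values of 6, 68 and 24 and FPKM of 10.2, 185 and 53.8. Its rise of 3.68 ± 0.17 in wing (adjusted p = 1.7e-93) was the largest of the 21 members in that comparison, and it rose by 2.06 in leg against neck.

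*SERPINE2*, a secreted thrombin inhibitor, had values of 131, 227 and 70 and FPKM of 327, 676 and 204. Leg was lowest in both tables. It rose by 0.92 ± 0.20 in wing against neck, fell by 0.79 ± 0.20 in leg against neck (adjusted p = 0.0025) and fell by 1.70 in leg against wing, the one member that fell in leg against neck. The wing against neck call was lost with only the neck and wing libraries in the fit. *SERPINI1*, neuroserpin, had the same order in the second table, with 12.9, 35.2 and 11.1 FPKM, and *SERPINB6* was at 27.9, 43.0 and 30.9 FPKM.

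*SERPINB5*, the epithelial serpin maspin, had the highest value of any member in the first table, with 557, 488 and 425 in neck, wing and leg. *SERPINB2* was at 56, 105 and 52, and *SERPINF2*, the plasmin inhibitor, at 42, 24 and 51, the only member at least 2-fold higher in leg than in wing. *SERPINA1*, *SERPINA4* and *SERPINB10* were under 1 FPKM in all regions.

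Integrins are the receptors that join this matrix to the cell. *ITGB1*, the beta chain shared by most matrix-binding integrins, had values of 34, 71 and 32 (neck, wing, leg) and FPKM of 95.0, 220.1 and 107. It rose by 1.12 ± 0.18 in wing against neck and fell by 1.08 in leg against wing, while leg and neck lay close in both tables (0.04, adjusted p = 0.92). *ITGA6*, the laminin-binding alpha chain found in hemidesmosomes, had values of 29, 46 and 29 and FPKM of 76.2, 112 and 87.0. It rose by 0.60 ± 0.17 in wing against neck (adjusted p = 0.0037), but was not called with only the neck and wing libraries in the fit.

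*ITGB5*, a partner of the alpha V chain, had values of 21, 32 and 19 and FPKM of 33.03, 66.6 and 34.1. It rose by 0.79 ± 0.17 in wing against neck, a call also lost with the 4 neck and wing libraries alone. *ITGAV*, the alpha V chain, had values of 20, 22 and 20 and FPKM of 49.2, 38.6 and 50.9, and the tables gave opposite signs for wing against neck (-0.11, adjusted p = 0.71). *ITGA3* stood at 35, 23 and 35 by the first table but at 0 in every library of the second, and was not called. In leg against neck none of the 5 integrins was called by limma, where 12.1% of all genes were. Nor did any have an unadjusted p under 0.05 there, as 571 of all 2191 genes did. *ITGA3*, equal in neck and leg in the first table and at 0 in the second, could not have been called there.

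The FPKM ratio of *ITGB1* to *ITGAV* was 1.93, 5.70 and 2.097 (neck, wing, leg). *COL17A1* stood to *ITGA6*, its fellow in the hemidesmosome, at 0.495, 1.56 and 0.763. Of the integrins in 1 table only, *ITGA2* was at 9, 13 and 8 and *ITGA9* at 1.67, 9.07 and 4.81 FPKM. *ITGA8* was at 0.953, 3.30 and 1.39 FPKM, and *ITGA1* at 2.63, 2.28 and 4.50. The leukocyte chain *ITGB2* was at 0.873, 2.02 and 2.84 FPKM, and *ITGB3* at 0.883, 2.40 and 0.641. Of the 9 second-table integrins past 1 FPKM, 3 were at least 2-fold higher in wing than in neck, where 15.9% of all entries were. *ITGA8*, *ITGB2* and *ITGB3*, under 1 FPKM in neck, were among the 9 only through wing. In leg against neck 2 of 8, *ITGA9* and *ITGB2*, were at least 2-fold higher in leg, where 3.09% of all entries were. *ITGA8* and *ITGB2* were among the 8 only through leg.

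The 4 names that are no subunits lay less than 2-fold apart between wing and neck. *ITGB1BP1* had values of 29, 23 and 24 and FPKM of 52.6, 71.1 and 50.5, with opposite signs in the tables, and overlaps *CPSF3*. *ITGB1BP3* was the highest of all members in the second table at 641, 1159 and 572 FPKM. *ITGB3BP* was at 6.71, 11.5 and 6.88 FPKM and *COL4A3BP* at 14, 9 and 11 in the first table.

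By summed FPKM the 63 second-table members other than the 3 non-subunits took 0.163% of the neck total, 0.586% of the wing total and 0.240% of the leg total. Glycoproteins and proteoglycans summed to 269, 1146 and 642 FPKM, and remodelling genes to 229, 566 and 289. Serpins summed to 423, 1109.7 and 400.4 FPKM, of which *SERPINE2* held the largest share, and without it to 95.9, 434 and 196 FPKM. The members' median log2 difference in the second table was 1.36 in wing and 0.54 in leg against neck, beside 0.41 and -0.03 for all entries.

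The lists of genes that work with the members stand beside the shares of all genes given above, 19.5% higher and 8.26% lower in wing against neck, 1.78% and 10.4% in leg against neck, and 5.98% and 40.8% in leg against wing. Of the enzymes and chaperones that make collagen, 1 of 4 tested rose in wing against neck (*PPIB*, a prolyl isomerase, by 0.80) and 0 were called in leg against neck by limma, with an unadjusted p under 0.05 for 1. In leg against wing 2 of the 4 fell. Of 11 in the second table, 4 were at least 2-fold higher in wing than in neck, where 15.9% of all entries were. Among the 4 was *LEPRE1*, a prolyl hydroxylase, at 6.98, 28.3 and 9.32 FPKM. By the same rule 0 of 8 in the first table were higher in wing, where 5.46% of all entries were. The median log2 difference of those 8 was 0.06. *P4HB*, a subunit of prolyl hydroxylase, was at 260.3, 327 and 271 FPKM, and at 304, 286 and 265 in the first table.

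Of other proteoglycans and glycoproteins 5 of 6 rose in wing against neck, 3 rose and 2 fell in leg against neck, and 4 fell in leg against wing. *OGN*, osteoglycin, rose by 2.59 and 1.74, and *VCAN*, versican, by 1.12 and 1.26 in wing and leg. *SPP1*, osteopontin, in the second table, was at 91.6, 604 and 74.8 FPKM. Of the adaptors of integrin adhesion 4 of 10 rose and 1 fell in wing against neck, and limma called 0 in leg against neck, with an unadjusted p under 0.05 for 0, while in leg against wing 1 rose and 5 fell. Of the other basement membrane genes only *DAG1*, dystroglycan, could be tested, and it rose by 0.61 in wing and fell by 0.53 in leg against neck, and fell by 1.14 in leg against wing. Of 4 in the first table, 0 were at least 2-fold higher in wing than in neck and 1 was lower (*NPNT*, at 19, 9 and 13). Of all entries, 5.46% and 7.87% were. Their median log2 difference was -0.20. Of 6 in the second table, 3 were at least 2-fold higher in wing, where 15.9% of all entries were. *NTN1*, at 0 in neck, was among the 3 only through wing. *AGRN* was at 14.8, 15.3 and 15.5 FPKM.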

How the data were processed

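RNA-seq values of 6 libraries were used as deposited. Per the labels' processing notes, the submitters named TopHat2 2.1.0, Cufflinks 2.2.1 and galGal4; entries on chromosome 33 (46) and on AADN04 scaffolds (738) leave the assembly of the loci in the first table unsettled. The first table holds whole numbers that the authors deposited with no stated unit, treated as a score. The second holds FPKM that the authors computed per gene, and its column of averages was not used. Neither holds counts, so depth and counting error are unknown.

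Members were taken by name pattern, and 2 merged entries holding a member name were skipped. The members, classes and gene lists were chosen with earlier results of these data known. Genes in both tables (2191) were fitted on log2(value + 1) with limma 3.58.1 in R 4.3.3 over all 6 libraries, with region and replicate number (which here is the table) as terms and a trended prior; the code was tested on simulated data. The replicate numbers were made a term because the tables differ in unit, not because the samples are known to share a bird; deviations of same-numbered libraries from the region means correlated at 0.968 to 0.990, as 2 tables in different units must. Fold rules within a table used a fold of 2 on value + 1 and a minimum of 10 or 1 FPKM. Fully described were members called with the same direction in both tables, one-table members at least 4-fold apart, the highest member of each class in each table, and a fixed set of matrix genes (*COL4A1*, *COL4A2*, *COL17A1*, *COL1A2*, *COL3A1*, *FN1*, *TNC*, *ITGB1* and *ITGA6*); other members are given so that all are accounted for. The fixed set also held *COL1A1* and *ITGB4*, which had no entry of their own in either table. Alternatives changed the block, the spread, normalization, pseudocount, fold, minimum, libraries and name matching. Python 3.11.15, pandas 2.3.3 and matplotlib 3.10.9 did the rest.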

Additional observations from a re-analysis of the deposited data

How the results depend on the processing

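The calls of the fit depend on the replicate block and on the pooled spread. Without the replicate block, limma called 0, 0 and 0 members in wing against neck, leg against neck and leg against wing, where the fit with the block called 18, 12 and 18. With each gene's own spread, chosen after seeing the data, it also called 0, 0 and 0. Of the 48 named changes, 0 reversed in any setting; 6 lost the call when the fit held just 4 libraries, those of the pair of regions (*ITGA6*, *ITGB5*, *SERPINE2*, *TIMP2* and *TIMP3* in wing against neck, *TIMP2* in leg against wing), 2 with centring or quantile normalization (*ITGA6* and *TIMP2* in leg against wing), and 1 with a pseudocount of 0.1 or without a trend (*TIMP3* in wing against neck). Leaving out a replicate leaves 1 table and no test, and all 48 kept their direction in each.

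Over all genes, centring moved the higher and lower calls from 427 and 181 to 481 and 521 in wing against neck, from 39 and 227 to 210 and 182 in leg against neck and from 131 and 893 to 621 and 526 in leg against wing, and quantile normalization to 499 and 536, 211 and 237, and 602 and 596. With 4 libraries, 199 of 608 calls were left by number in wing against neck, 13 of them members.

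At a fold of 1.5 the first table had 24, 13 and 22 members apart in the 3 comparisons, in place of 15, 7 and 12, and the second 42 in leg against wing, in place of 22. At a fold of 4 the first had 8, 0 and 1 and the second 16, 5 and 1. With libraries centred on their medians the second had 24 in wing against neck, in place of 38, and 12 in leg against wing. The shares of all entries under these settings were not counted. These counts therefore cannot say how far members stood apart from other genes there.

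Centring moved the members' median to 0.88 (wing against neck, second table), 0.54 (leg against neck, first), and -0.47 and -0.48 (leg against wing, first and second). A pseudocount of 0.1 gave 1.76 (wing against neck, second), and -0.72 and -1.03 (leg against wing, first and second). Without a minimum the second table gave 0.22 in leg against neck and -0.83 in leg against wing. For fibrillar collagens centring gave 2.95 (wing against neck, second) and 1.94 (leg against neck, first), and no minimum 2.59 and 1.18 in the second table, in wing and leg against neck. For the basement membrane zone centring gave 1.67 in wing against neck (second), and 0.91 and 0.83 in leg against neck (first and second), a pseudocount of 0.1 gave 0.69 and 0.93 there, and no minimum 0.80 in the second table. Of the 34 medians not printed singly, 19, 8 and 6 moved with centring, no minimum and the pseudocount, and 0 reversed. The 34 cover the other classes, and the fibrillar collagens and basement membrane zone in leg against wing. A median counted as moved if it changed by more than the SD between the tables' medians over the shared members of the class. For other collagens this SD rests on 1 gene. With no counts in either table, what depth limits cannot be stated.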
